A study of Homo sapiens with 20 samples.

Results

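The response of Mel202 uveal melanoma cells to 48 h of all-trans retinoic acid (ATRA) was compared with cells kept for 48 h with the ethanol vehicle (EtOH). The samples were chosen by their treatment labels, 100 nM ATRA for 48 h on 4 Illumina BeadChip arrays and EtOH for 48 h on 3 arrays, 7 of the 20 arrays of the series. Arrays with the same title number were averaged into 1 sample, leaving 3 ATRA and 2 EtOH samples at 48 h, 5 of 14 in all. The ATRA samples are replicates 1-2 (the mean of 2 arrays), 3 and 4, and the EtOH samples are replicates 1 and 2-3. The labels do not say whether these came from separate cultures, so a p-value here reflects spread among samples that may be technical repeats. The other groups compared here are ATRA for 24 h (3 samples), EtOH for 24 h (2 samples) and 100 nM 9-cis retinoic acid (9-cis RA) for 48 h (2 samples). The group with 100 nM 9-cis RA for 24 h (2 samples) entered the normalization, the detection filter and the shared fit, but no comparison given here. All groups share the same line, which was established from a locally recurrent uveal melanoma that had been irradiated, carries 2 mutations of GNAQ and is BRAF wild type. All were grown in the same serum-containing medium, and the ethanol solvent is common to all of them.

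Retinoic acid is a hormone made from vitamin A that enters the nucleus and binds the retinoic acid receptors, which pair with retinoid X receptors on DNA. The bound receptors exchange corepressors for coactivators, and among their best known targets are genes that clear retinoic acid again, such as the CYP26 hydroxylases. Uveal melanoma arises from melanocytes of the eye, cells of neural crest origin, and is usually driven by mutations that keep the G protein alpha subunits Gq or G11 active.

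Receptor pairs bind direct repeats of a short element, most often with a spacer of 5 bases (DR5). Pairs with that spacer were searched of the element AGGTCA, of its variant AGTTCA, of the element GGGTCA and of its variant GGTTCA, in any combination and on both strands, in RefSeq promoter windows of GRCh38.p14 from 250 bases before to 50 bases after each gene start. Of 35116 windows 31 held such a repeat (0.0883%). Of the 8652 tested genes with a promoter window 7 held one. CYP26A1 and RARB, which encode the hydroxylase and a receptor, were the 2 of these that passed the test at 48 h, and both were higher with ATRA. COL24A1, ATXN1L, HROB, CFLAR and PANK2 held a match and did not pass. The 2 stretches are shown because theirs are the matched genes that passed, with the repeat in capitals and up to 60 bases on each side.
CYP26A1: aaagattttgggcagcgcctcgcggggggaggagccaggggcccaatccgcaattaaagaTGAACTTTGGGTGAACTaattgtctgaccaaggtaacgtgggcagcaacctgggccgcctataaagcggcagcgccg
RARB: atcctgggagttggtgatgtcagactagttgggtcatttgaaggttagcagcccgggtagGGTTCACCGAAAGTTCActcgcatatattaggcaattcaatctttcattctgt
The CYP26A1 stretch is chr10:93073743-93073879 on the plus strand, and its repeat lies 90 to 74 bases before the start and reads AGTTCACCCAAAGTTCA on the opposite strand. The RARB stretch is chr3:25428150-25428262 on the plus strand, with the repeat 53 to 37 bases before the start. Neither window held the same elements with a spacer of 2 or 1 bases, which were found in 0.0399% and 0.131% of all windows. Among tested genes with a window, 2 of 197 that were higher by 2-fold or more held the DR5 repeat (1.02%), and 0 of 128 that were lower by 2-fold or more did. A match describes these letters alone. The other genes named here either held no DR5 repeat or have no window listed. RPL34, named below, held repeats with a spacer of 1 base and was lower at 48 h.

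Levels are log2 intensities after background correction and quantile normalization, and differences are ATRA minus EtOH in log2 with the standard error (SE). Genes are said to pass below 0.05 in limma's moderated test after adjustment of p by Benjamini and Hochberg across the whole table. In bulk RNA of this kind, fewer cells with a transcript and less of it per cell cannot be told apart. Between 26.5% and 36.2% of probes were detected on an array, and precision is limited by how many arrays there are. The 2 EtOH samples at 48 h stood apart from each other. On the first principal component (42.7% of the variance) EtOH replicate 1 lay at -41.1 and EtOH replicate 2-3 at -19.0. The EtOH samples at 24 h lay between them, at -31.6 and -33.8, and the ATRA samples at 48 h lay at 14.0, 17.9 and 25.9. Across genes, EtOH replicate 2-3 correlated with the ATRA samples at 0.965 to 0.978, and with EtOH replicate 1 at 0.969. ATRA replicate 4 stood apart on the second component (17.5%), at -15.3, whereas the other ATRA samples lay at 13.4 and 16.3. The arrays also form 2 sets by the number of probes detected, and ATRA replicates 2 and 4 and EtOH replicate 3 belong to the set with fewer detected probes. All 8 tested melanocyte markers of 9 listed were detected on all 7 arrays, with a summed intensity of 65905 to 70300 in ATRA samples and 51074 to 59945 in EtOH samples. Of the markers of endothelium (8), leukocytes (10) and epithelium (8), only EMCN, CD68, CDH1 and ESRP1 were tested, and the defining PECAM1, PTPRC and EPCAM were not. At 48 h EMCN was higher by 0.72 and CD68 by 1.03, ESRP1 fell by 0.76, and CDH1 gave 0.24 and did not pass. The part of other cell types in the results was not tested.

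After 48 h of ATRA, 1856 of 10673 tested genes passed (17.4%), of which 919 were higher (8.61%) and 937 lower (8.78%). Of these, 241 rose and 228 fell by 2-fold or more. At an unadjusted p under 0.05 there were 3415 genes, and the median difference over all genes was -0.000687. All ATRA samples lay above all EtOH samples in 2002 genes (18.8%) and below them in 2134 genes (20.0%). Another 110 of 4075 detected probes with no single gene listed passed when tested apart (2.70%). The total depends on which control library is kept. Without EtOH replicate 1, 816 genes passed, 458 higher and 358 lower, and 713 of the 1856 calls were kept. Without EtOH replicate 2-3, 3274 passed. All 1856 kept their direction without either, although 476 of them had a difference smaller by over 1.5 times without EtOH replicate 1, and 631 (353 higher and 278 lower) kept their call in each of the 5 fits that left out 1 sample. Within the larger array set alone 1510 genes passed, within the smaller set, with a single EtOH array, 103, and 2138 when the fit held a set term. With equal array medians in place of quantiles the balance moved to 500 higher and 1110 lower, 31.1% higher against 49.5%, with a median over all genes of -0.10.

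**Figure D1:**
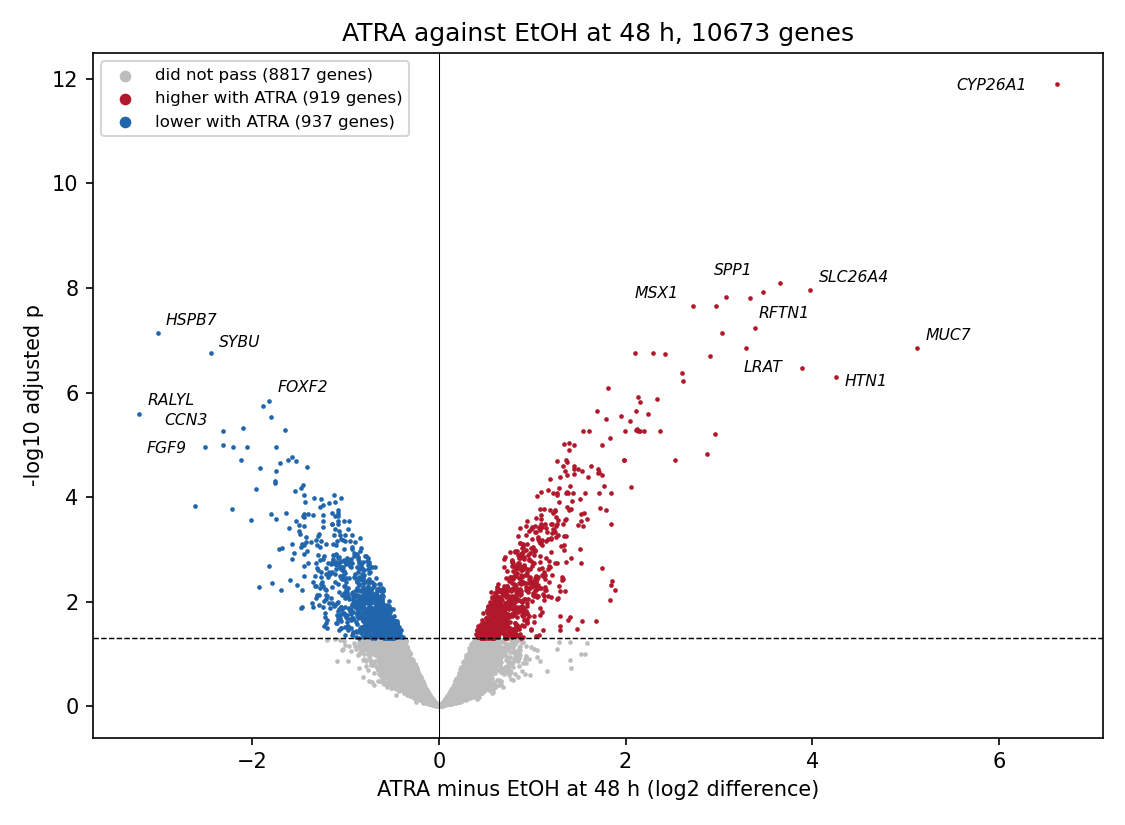
Difference of each of 10673 genes at 48 h (x axis, ATRA minus EtOH, log2) against -log10 of limma's adjusted p (y axis), with the threshold as a dashed line; red genes were higher with ATRA, blue genes lower, and grey genes did not pass. CYP26A1 stands alone at the upper right, and among the falls HSPB7 and SYBU have the smallest adjusted p.

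Most tested genes known to respond to retinoic acid rose. Of 11 tested members of the retinoic acid response list, 9 rose and 0 fell, with a median difference of 1.49, where 8.61% of all genes were higher. CYP26A1, which hydroxylates retinoic acid for its clearance, had log2 levels of 11.25, 11.21 and 11.27 in the ATRA samples, against 4.64 and 4.60 in the EtOH samples, where it was detected on 0 of 3 arrays. The ATRA values lay close together, and CYP26A1 exceeded EtOH at least 46.7-fold (adjusted p = 1.27e-12). Where a group hardly detected a probe the fold is given in this way, as the ratio to the detection bound. No sampling error was computed for that ratio, and its p is that of the fitted difference. The 2 other detected probes of CYP26A1 gave fitted differences of 3.10 and 3.93. LRAT, which esterifies retinol for storage, had 9.40, 9.22 and 8.62 with ATRA and 5.43 and 4.95 with EtOH, not detected on any EtOH array and at least 10.4-fold higher (adjusted p = 3.4e-07). DHRS3, which reduces retinal to retinol, had 6.86, 6.80 and 6.93 with ATRA and 4.92 and 5.36 with EtOH, at least 2.25-fold higher (adjusted p = 3.33e-05). In each of these genes the groups were far apart compared with the spread inside them.

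Enzymes and carriers on the supply side of the pathway did not all go the same way. Of 12 tested genes of retinoid metabolism, 6 were higher and 3 lower. ALDH1A2, which makes retinoic acid from retinal, had 7.42, 7.48 and 7.34 with ATRA and 6.10 and 5.92 with EtOH, a difference of 1.40 ± 0.13 (adjusted p = 9.39e-06) and 0.77 from its second detected probe. RDH10, the main retinol dehydrogenase of the embryo in mice, fell by 0.84 ± 0.16 on the log2 scale (adjusted p = 0.00365). FABP5, a fatty acid binding protein that can also carry retinoic acid, had 10.57, 10.42 and 10.29 with ATRA and 12.16 and 11.77 with EtOH, a change of -1.53 ± 0.15 (adjusted p = 2.03e-05). RLBP1, a retinaldehyde carrier of the retina, was at least 1.41-fold higher (adjusted p = 0.00561). RDH13 fell by 0.68 ± 0.17, but without EtOH replicate 1 it did not pass (adjusted p = 0.146), and RLBP1 did not pass within the larger array set.

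Receptors and their partners rose in 6 of 11 tested genes, where 8.61% of all genes were higher. In this list 0 were lower, and the median difference was 0.59 (4 higher with equal array medians). RARB had 8.34, 8.77 and 8.47 with ATRA and 6.94 and 7.14 with EtOH, a difference of 1.49 ± 0.15 (adjusted p = 2.86e-05). NRIP1, a corepressor that binds ligand-occupied receptors, had 9.87, 10.10 and 10.09 with ATRA against 7.14 and 7.70 with EtOH, a difference of 2.60 ± 0.17 (adjusted p = 4.3e-07). The orphan receptor NR2F1 (COUP-TFI) was not detected with EtOH and was at least 1.96-fold higher (adjusted p = 0.00497). RARA gave 0.91 ± 0.25 (adjusted p = 0.0227), with 10.31, 10.58 and 9.67 in ATRA samples and 9.48 and 9.07 in EtOH samples. The groups did not overlap, but came close. RARA did not pass without EtOH replicate 2-3, without ATRA replicate 1-2, without ATRA replicate 3 or with equal array medians. The retinoid X receptor RXRA gave 0.03 ± 0.15 and did not pass (adjusted p = 0.91).

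Transcription factors of patterning and of the neural crest held some of the largest changes, in both directions. Of 29 tested homeobox genes 4 were higher and 3 lower, and of 24 neural crest and basic helix-loop-helix factors 8 were higher and 4 lower, with a median difference of 0.50, or 5 higher and 4 lower with equal array medians. MSX1, a homeobox repressor of differentiation, had 11.54, 11.51 and 11.24 with ATRA and 8.64 and 8.78 with EtOH (2.72 ± 0.13, adjusted p = 2.22e-08). HOXA2, a homeobox gene of the hindbrain and its neural crest, was not detected with EtOH and was at least 2.78-fold higher (adjusted p = 1.96e-05). MEIS2, a cofactor of HOX proteins, rose by 1.20 ± 0.18 (adjusted p = 0.000622), although its other detected probe gave 0.48. FOXF2, a forkhead factor of neural crest mesenchyme, had 7.76, 7.77 and 7.84 with ATRA and 9.48 and 9.73 with EtOH, a change of -1.82 ± 0.13 (adjusted p = 1.43e-06). SOX8, a relative of SOX10, changed by -1.07 ± 0.15 (adjusted p = 0.000446). In all 5 of these genes the groups did not overlap, where ATRA samples lay all above in 18.8% and all below in 20.0% of all genes. Genes were named partly for this separation or for a low p, so it adds no support. Each kept its call when any 1 sample was left out.

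SOX4 shows how far the control libraries could differ. It had 11.33, 11.12 and 11.25 in the ATRA samples, against 8.30 and 10.40 in the EtOH samples. The controls lay far apart and the ATRA samples close together. The difference of 1.88 ± 0.39 (adjusted p = 0.00603) became 0.83 without EtOH replicate 1 (adjusted p = 0.00356). KLF9, a Kruppel-like factor that responds to nuclear hormones, was closer in its controls, with 9.72, 9.49 and 10.12 with ATRA and 7.71 and 7.89 with EtOH (1.98 ± 0.19, adjusted p = 1.92e-05). Of 23 immediate early and Kruppel-like factors, KLF9 was the 1 that was higher and EGR1 the 1 that was lower. Together they made 8.70% of that list, where 17.4% of all genes passed. EGR1, a growth factor response gene, had 7.98, 8.12 and 8.01 with ATRA and 9.36 and 8.95 with EtOH (-1.12 ± 0.16, adjusted p = 0.000533).

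Notch pathway genes went both ways. Of 16 tested members 3 were higher and 3 lower (37.5%, against 17.4% of all genes), with a median of 0.04. With equal array medians 1 was higher and 3 lower. HEY2, a transcriptional repressor downstream of Notch, had 9.38, 9.73 and 9.55 with ATRA and 7.57 and 7.30 with EtOH (2.12 ± 0.16, adjusted p = 2.28e-06). Its relative HEY1 had 7.89, 8.23 and 7.79 with ATRA and 8.65 and 8.83 with EtOH (-0.77 ± 0.16, adjusted p = 0.00553), with -0.31 from its other detected probe. LFNG, a glycosyltransferase that modifies Notch receptors, was detected on 1 of 4 ATRA arrays and was at least 3.16-fold lower (adjusted p = 1.92e-05). The ligand JAG2 fell by 0.72 ± 0.17 (adjusted p = 0.0133), and did not pass without EtOH replicate 2-3.

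**Figure D2:**
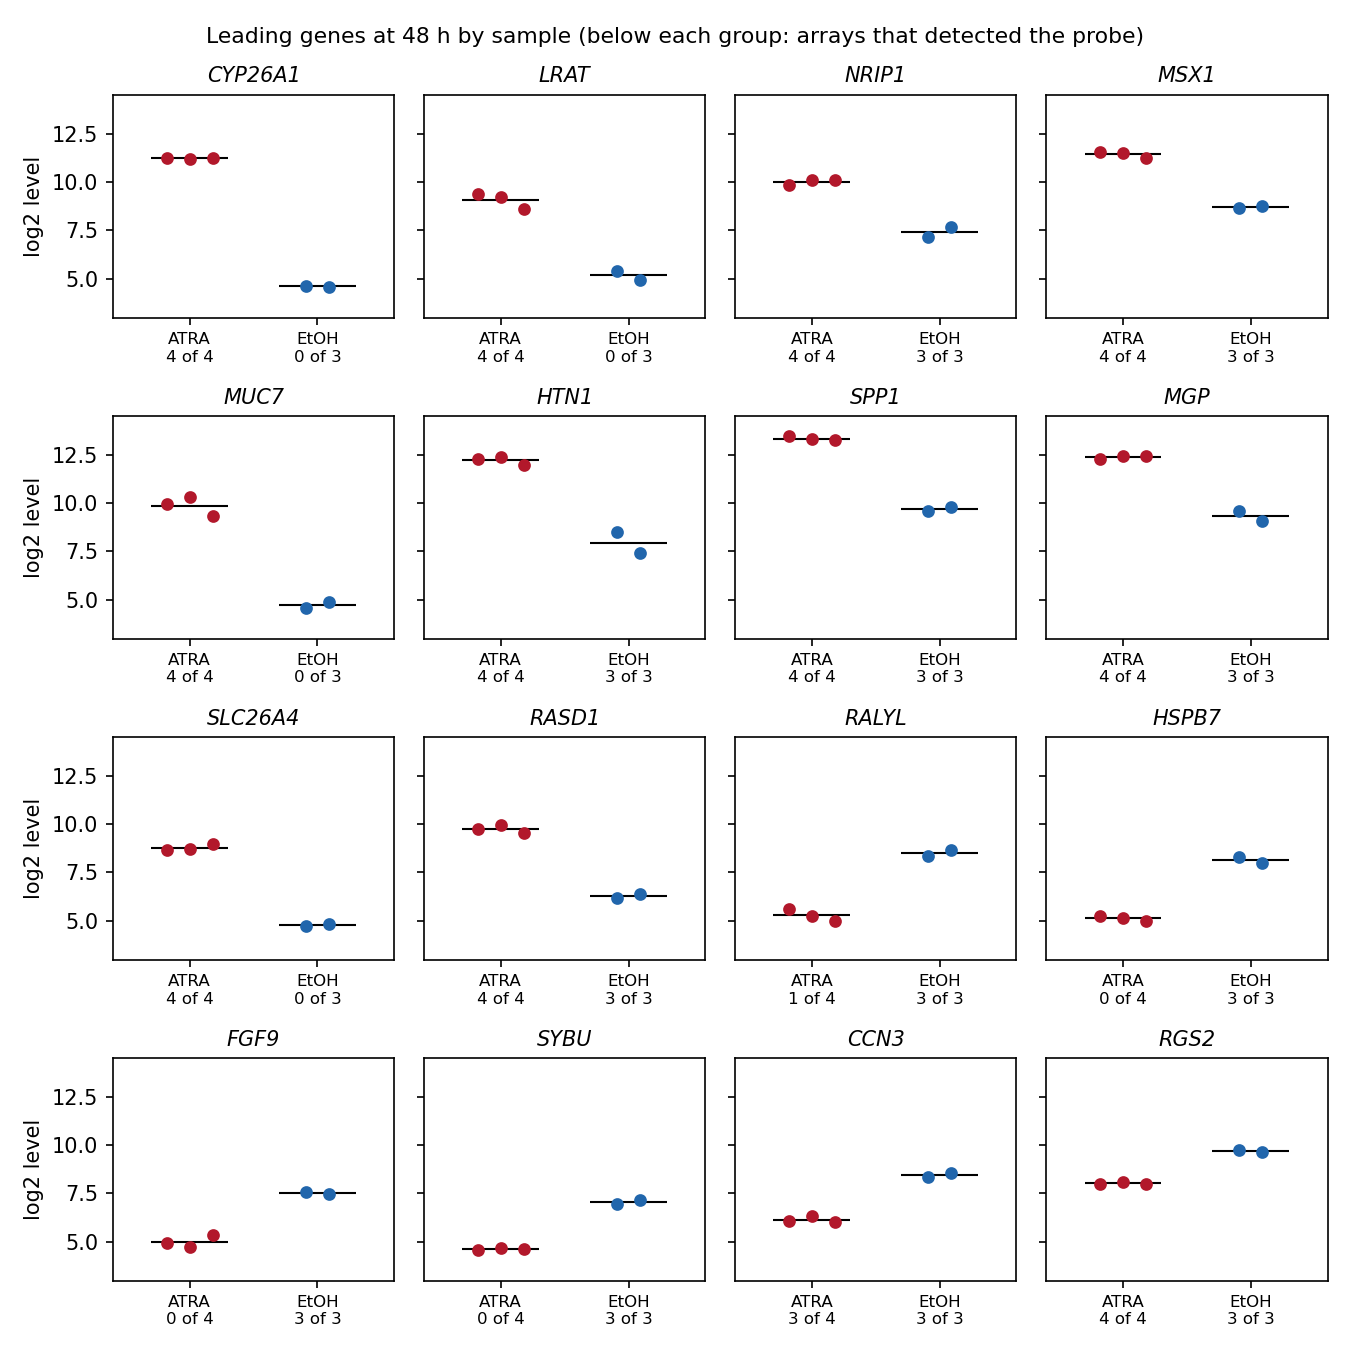
Log2 levels of 16 leading genes at 48 h, with the 3 ATRA samples in red on the left of each panel, the 2 EtOH samples in blue on the right and group means as lines; the numbers of arrays that detected the probe stand below each group. In no panel do the groups overlap, and levels are comparable within a panel, not between panels.

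Among the genes with the highest differences were 4 that encode secreted proteins. The salivary mucin gene MUC7 had 9.94, 10.33 and 9.34 with ATRA and 4.60 and 4.89 with EtOH, not detected on EtOH arrays and at least 18.0-fold higher (adjusted p = 1.43e-07). The salivary histatin HTN1 had 12.28, 12.39 and 11.99 with ATRA, against 8.51 and 7.41 with EtOH (4.26 ± 0.28, adjusted p = 5.11e-07). SPP1, which encodes the bone and tumour phosphoprotein osteopontin, had 13.44, 13.30 and 13.24 with ATRA and 9.56 and 9.77 with EtOH (3.66 ± 0.14, adjusted p = 8.07e-09). MGP, an inhibitor of matrix calcification, had 12.29, 12.44 and 12.42 with ATRA and 9.60 and 9.08 with EtOH (3.04 ± 0.16, adjusted p = 7.3e-08). In the EtOH samples themselves MGP was lower at 48 h than at 24 h (-1.34, adjusted p = 0.0202). All 4 genes kept their call when any 1 sample was left out.

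Matrix genes as a list moved both ways. Of 27 tested collagens and matrix proteins 6 were higher and 5 lower (40.7%, against 17.4% of all genes), with a median difference of -0.13. The small leucine-rich proteoglycans decorin and lumican were higher, DCN at least 1.95-fold (adjusted p = 5.52e-06) and LUM by 1.34 ± 0.20 (adjusted p = 0.000541), whereas BGN, biglycan of the same family, fell by 0.87 ± 0.19 (adjusted p = 0.0079). DCN had 6.43, 6.54 and 7.01 with ATRA and 4.43 and 4.59 with EtOH, and was not detected on any EtOH array. Both DCN and LUM also stood on the list of 8 fibroblast markers, of which COL1A1 has a probe that did not pass the detection filter and the other 5 were not analysed here. CCN3, a matricellular protein, had 6.09, 6.33 and 6.02 with ATRA and 8.37 and 8.55 with EtOH (-2.32 ± 0.20, adjusted p = 5.52e-06). COL9A1, a chain of type IX collagen, was detected on 1 of 4 ATRA arrays and was at least 2.91-fold lower (adjusted p = 1.08e-05). The list held 5 higher and 4 lower genes without EtOH replicate 1.

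Proteases, inhibitors and enzymes at the cell surface were more often higher, in 7 of 24 tested members against 1 lower. Of all genes 8.61% were higher and 8.78% lower. MME, the membrane peptidase neprilysin, had 7.98, 8.26 and 8.33 with ATRA and 4.94 and 4.87 with EtOH, at least 5.64-fold higher (adjusted p = 1.43e-07). SERPINE2, an inhibitor of thrombin, rose by 1.22 ± 0.16 (adjusted p = 0.0002), and SERPINI1, neuroserpin, changed by -1.50 ± 0.21 (adjusted p = 0.000345). This list held 2 higher and 1 lower gene without EtOH replicate 1, and 4 higher and 1 lower with equal array medians. ADAM10, the sheddase of Notch and other proteins, had 9.11, 9.13 and 9.24 with ATRA and 6.53 and 8.73 with EtOH. Its difference of 1.53 ± 0.41 (adjusted p = 0.0233) was 0.43 without EtOH replicate 1 and did not pass (adjusted p = 0.143). Outside these lists, CYP19A1, the aromatase that makes oestrogens, was detected on 1 of 3 EtOH arrays and was at least 4.91-fold higher (adjusted p = 1.52e-05). PLPP3, a phosphatase that degrades lysophosphatidic acid, rose by 2.61 ± 0.17 (adjusted p = 6.13e-07).

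Growth factor genes and their receptors went both ways, with 5 higher and 5 lower of 30 (33.3%, against 17.4% of all genes). With equal array medians 4 were higher and 7 lower. FGF9, a fibroblast growth factor, was at 4.93, 4.73 and 5.36 with ATRA, not detected on any ATRA array, and at 7.57 and 7.45 with EtOH, at least 3.36-fold lower (adjusted p = 1.11e-05). FGFR4, a receptor of the same family, fell by 1.06 ± 0.20 (adjusted p = 0.00328). MERTK, a receptor kinase for the uptake of dead cells and of photoreceptor outer segments, had 10.04, 10.21 and 10.40 with ATRA and 7.98 and 7.86 with EtOH (2.29 ± 0.13, adjusted p = 1.76e-07). PDGFD, a platelet-derived growth factor gene of no list used here, had 8.11, 8.19 and 8.70 with ATRA and 5.89 and 6.10 with EtOH (2.34 ± 0.17, adjusted p = 1.31e-06). The hepatocyte growth factor receptor MET rose by 0.85 ± 0.18, a call lost without EtOH replicate 1 (adjusted p = 0.0659).

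Adhesion and guidance molecules changed in both directions, where 8.61% of all genes were higher and 8.78% lower. Of 22 integrins, cadherins and related genes 2 were higher and 6 lower, and of 22 semaphorin, netrin and ephrin pathway genes 6 were higher and 1 lower. The cadherin CDH7, of migrating neural crest in the chick, had 5.69, 5.67 and 5.28 with ATRA and 8.28 and 7.26 with EtOH, at least 3.72-fold lower (adjusted p = 0.00017). NRCAM, a neuronal adhesion molecule, was not detected with ATRA and was at least 1.85-fold lower (adjusted p = 3.09e-05). The secreted guidance cue SEMA3C was not detected with ATRA and was at least 1.69-fold lower (adjusted p = 0.00109), and NTN4, a netrin, was not detected with EtOH and was at least 1.24-fold higher (adjusted p = 0.00333). ROBO1, a receptor for Slit cues, rose by 1.32 ± 0.25, a call lost without EtOH replicate 1 (adjusted p = 0.0505). Without that control the adhesion list held 0 higher and 5 lower genes, and the guidance list 2 higher and 1 lower.

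The Gq pathway, which the GNAQ mutations of this line keep active, and its regulators were tested in 36 genes. Of these 6 were higher and 5 lower (30.6%, against 17.4% of all genes). With equal array medians 2 were higher and 5 lower, and 26 of the 36 differences were below 0. RASD1, a RAS-related G protein that modulates receptor signalling, had 9.72, 9.96 and 9.53 with ATRA and 6.15 and 6.38 with EtOH (3.47 ± 0.15, adjusted p = 1.21e-08). Several RGS genes, whose products switch G proteins off, fell. RGS2, which acts on Gq, had 8.01, 8.11 and 8.00 with ATRA and 9.73 and 9.66 with EtOH (-1.65 ± 0.14, adjusted p = 5.18e-06). RGS16 was not detected with ATRA and was at least 1.35-fold lower (adjusted p = 0.000211), and RGS10 fell by 0.82 ± 0.15 (adjusted p = 0.00246). PLCB1, a phospholipase that Gq activates, was not detected with ATRA and was at least 1.56-fold lower (adjusted p = 0.00736). PRKCB, a protein kinase C, fell by 0.83 ± 0.20 (adjusted p = 0.0134), but its 4 other detected probes gave 0.01 to -0.38, and it fell by 0.44 and did not pass without EtOH replicate 1.

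GNAQ itself had 7.77, 8.00 and 8.11 with ATRA and 5.35 and 7.60 with EtOH. Its difference of 1.48 ± 0.44 passed (adjusted p = 0.0332), yet the controls lay farther from each other than EtOH replicate 2-3 lay from the ATRA samples. The difference was 0.36 without EtOH replicate 1 and did not pass (adjusted p = 0.381), and it did not pass either within the larger array set or with equal array medians. RGS20 rose by 0.78 ± 0.14 (adjusted p = 0.00204), against -0.29 from its second detected probe, and its call was lost with equal array medians.

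Receptors coupled to G proteins changed in 11 of 24 tested genes (45.8%, against 17.4% of all genes), 5 higher and 6 lower. With equal array medians 3 were higher and 6 lower. EDNRB, the endothelin receptor of melanocytes, had 12.97, 13.08 and 12.83 with ATRA and 11.49 and 12.13 with EtOH (1.15 ± 0.17, adjusted p = 0.000682). Receptors for lysophosphatidic acid diverged. LPAR6 had 7.42, 7.32 and 7.35 with ATRA and 5.94 and 6.50 with EtOH (1.15 ± 0.16, adjusted p = 0.000396), and LPAR3 had 6.13, 5.91 and 6.38 with ATRA and 7.33 and 7.30 with EtOH (-1.18 ± 0.22, adjusted p = 0.00273). ADGRG1 (GPR56), an adhesion receptor, was not detected with ATRA and was at least 2.14-fold lower (adjusted p = 2.22e-05). The serotonin receptor HTR2B, a gene of metastatic risk classes in uveal melanoma, fell by 0.76 ± 0.13 (adjusted p = 0.00148). All 5 kept their call when any 1 sample was left out.

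Feedback genes of the MAPK pathway and ETS targets were higher in 6 of 20 tested members, with 1 lower and a median of 0.01. PHLDA1, an immediate early gene of growth factor signalling, had 12.53, 12.53 and 12.49 with ATRA and 10.71 and 11.31 with EtOH (1.51 ± 0.18, adjusted p = 0.000109). IER3, a survival factor, rose by 1.42 ± 0.17 (adjusted p = 0.000121), SPRY1, a Sprouty inhibitor of receptor kinases, by 1.25 ± 0.18 (adjusted p = 0.000455) and the ETS factor ETV5 by 0.89 ± 0.17 (adjusted p = 0.00338). DUSP6, a phosphatase of ERK, gave -0.05 ± 0.14 and did not pass (adjusted p = 0.846), although its other detected probe gave 0.83. Of other signalling genes among the highest 40, the pseudokinase TRIB2 rose by 2.42 ± 0.14 (adjusted p = 1.82e-07), the scaffold AKAP12 by 2.13 ± 0.15 (adjusted p = 1.19e-06, with 0.53 and 2.28 from other probes) and the kinase MAP2K5 by 2.12 ± 0.18 (adjusted p = 5.01e-06).

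Some genes that build ribosomes were lower. Of 25 tested genes of ribosome biogenesis and the MYC network, 9 were lower and 2 higher, with a median difference of -0.41, where 8.78% of all genes were lower. NOP16, a nucleolar protein, had 8.80, 8.98 and 8.85 with ATRA and 10.83 and 9.81 with EtOH (-1.44 ± 0.22, adjusted p = 0.000805), and -0.93 without EtOH replicate 1. NOP56, a core protein of box C/D small nucleolar particles, had 11.47, 11.07 and 11.17 with ATRA and 12.53 and 12.18 with EtOH (-1.12 ± 0.16, adjusted p = 0.000404). RRP12, a ribosomal RNA processing factor, fell by 0.81 ± 0.15 (adjusted p = 0.00351), and WDR12, a factor of the large subunit, by 0.62 ± 0.15 (adjusted p = 0.0133, lost within the larger array set). In all 4 genes every ATRA sample lay below both EtOH samples, as in 20.0% of all genes. The list held 8 lower and 2 higher genes without EtOH replicate 1, and 12 lower and 1 higher with equal array medians. At the level of the calls, NOP58, RRP9, CAD and PPAN did not pass without EtOH replicate 1 (adjusted p of 0.0707 to 0.092), with NOP58 at -0.48 against -0.72 over all samples.

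The 2 higher genes of that list, MXD4 and MNT, both encode repressors that compete with MYC for MAX. MXD4 had 10.24, 10.46 and 10.36 with ATRA and 9.06 and 9.12 with EtOH (1.27 ± 0.12, adjusted p = 2e-05). MNT rose by 0.52 ± 0.17 (adjusted p = 0.0476), a call lost without EtOH replicate 2-3, without either of ATRA replicates 1-2 and 3, with equal array medians and without the filter on detection. MYC itself had 11.23, 11.27 and 11.37 with ATRA and 10.59 and 11.94 with EtOH, with the ATRA samples between the controls (0.03 ± 0.27, adjusted p = 0.957). Without EtOH replicate 1 MYC differed by -0.65 and passed (adjusted p = 0.0237). Of 31 tested genes of a list of cytosolic ribosomal proteins, RPL14 was the 1 that was lower (-0.73, and -0.30 without EtOH replicate 1, where it did not pass). Counted by symbol, a set chosen after its values were seen, 6 of 67 ribosomal protein genes were lower and 0 higher, where 8.78% of all genes were lower. The others of these 6 were RPL29, RPL34, RPL36A, RPS7 and RPS21.

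Small RNAs that guide the modification of ribosomal and spliceosomal RNA stood out among the falls, and were grouped after their values were seen. Of 114 tested small nucleolar and Cajal body RNAs, 72 were lower and 0 higher, where 8.78% of all genes were lower, with a median difference of -0.86 and 108 below 0. Their median log2 level was 5.76, 5.91 and 5.49 in the ATRA samples, against 6.78 and 6.34 in the EtOH samples. The lowest detected level lay between 5.47 and 5.98 on the ATRA arrays at 48 h. The ATRA medians were thus near the detection bound. SNORD96A had 7.24, 7.34 and 6.84 with ATRA and 9.26 and 8.51 with EtOH (-1.75 ± 0.23, adjusted p = 0.000258). SNORD83B had 6.86, 6.95 and 6.64 with ATRA and 9.04 and 7.95 with EtOH (-1.68 ± 0.26, adjusted p = 0.000919). SNORA12 was not detected with ATRA and was at least 3.50-fold lower (adjusted p = 0.000149). EtOH replicate 1 was the higher control for these RNAs in both the median and the examples.

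The count of small nucleolar RNAs depends on that control. Without EtOH replicate 1, 22 were lower and 0 higher, with a median of -0.65, and without EtOH replicate 2-3, 78 were lower. Of 15 other small non-coding RNAs 9 were lower and 0 higher, where 8.78% of all genes were lower. Their median log2 level was 7.36, 7.52 and 6.77 in the ATRA samples. It was 8.47 in EtOH replicate 1 and 7.56 in EtOH replicate 2-3, which thus lay close to ATRA replicate 3. RNY4, a Y RNA, was not detected with ATRA and was at least 1.79-fold lower (adjusted p = 0.00153), and RNU4-2, a spliceosomal RNA, at least 2.61-fold lower (adjusted p = 0.00603), which did not pass without EtOH replicate 1 (-0.94 against -1.69 over all samples, adjusted p = 0.0854). At 24 h the median of the 114 RNAs was 6.02, 6.46 and 6.23 in ATRA samples and 6.81 and 6.82 in EtOH samples, where the controls were close to each other, and 17 were lower. Per the labels the arrays were labelled from an oligo(dT) primer, while most small nucleolar RNAs carry no poly(A) tail, and the part of priming or RNA preparation in these values was not tested.

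**Figure D3:**
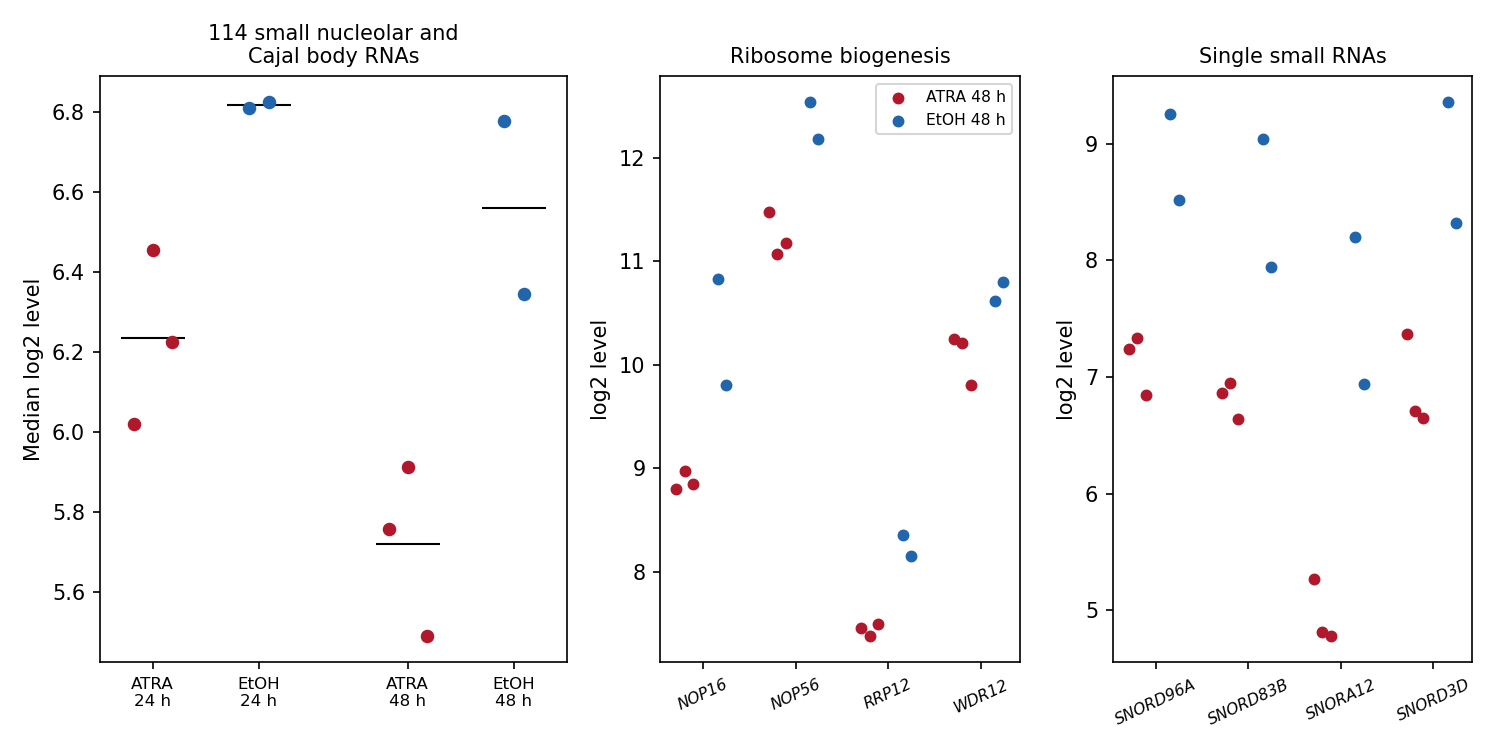
Left, median log2 level of 114 small nucleolar and Cajal body RNAs in each ATRA (red) and EtOH (blue) sample at 24 and 48 h, with group means as lines; centre and right, log2 levels at 48 h of 4 ribosome biogenesis genes and 4 small RNAs. The ATRA medians at 48 h lie between 5.49 and 5.91, below both EtOH samples, and the EtOH samples at 48 h differ by more than those at 24 h.

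Cell division genes showed few calls. Of 38 DNA replication genes 3 were lower and 0 higher (median -0.15), and of 41 genes of G2 and mitosis 2 were lower and 0 higher (median -0.01), both below the 17.4% of all genes. With equal array medians 6 genes of G2 and mitosis were lower. AURKB, a mitotic kinase, had 9.87, 9.77 and 9.54 with ATRA and 10.68 and 10.48 with EtOH (-0.86 ± 0.17, adjusted p = 0.00466). The replication genes MCM10, GINS2 and ORC1 differed by -0.43, -0.45 and -0.61, and none of these 3 calls was kept without EtOH replicate 1, where GINS2 was at -0.27. Among G1 regulators 5 of 22 were higher and 1 lower (27.3%, against 17.4% of all genes). With equal array medians 2 of them were higher and 1 lower. CCNG2, an atypical cyclin of quiescent cells, had 7.98, 7.81 and 8.04 with ATRA and 6.28 and 7.18 with EtOH (1.21 ± 0.23, adjusted p = 0.00304), and 0.75 without EtOH replicate 1.

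CDK inhibitors gave weaker values. CDKN1B (p27) had 9.06, 9.30 and 9.69 with ATRA and 8.36 and 8.87 with EtOH (0.74 ± 0.21, adjusted p = 0.0309). This call was lost without EtOH replicate 1, where the difference was 0.48, without ATRA replicate 3 or 4, with equal array medians, with the 20 arrays taken as independent and within the larger array set. CDKN1A (p21) gave 0.14 ± 0.15 (adjusted p = 0.566) and CCND1 -0.12 ± 0.15 (adjusted p = 0.635), and neither passed. The mitophagy receptor BNIP3L, of a list of apoptosis regulators with 3 higher and 3 lower of 24, rose by 1.34 ± 0.21 (adjusted p = 0.00103), and by 0.89 without EtOH replicate 1.

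Amino acid and ion transporters changed in 18 of 54 tested solute carriers (33.3%, against 17.4% of all genes), 7 higher and 11 lower. SLC26A4, the anion exchanger pendrin of thyroid and inner ear, had 8.65, 8.69 and 8.95 with ATRA and 4.74 and 4.82 with EtOH, at least 8.39-fold higher (adjusted p = 1.11e-08). Both chains of the large neutral amino acid transporter rose, SLC7A5 by 1.63 ± 0.16 (adjusted p = 2.5e-05) and SLC3A2 by 1.03 ± 0.16 (adjusted p = 0.00105). SLC7A5 had 13.28, 13.69 and 13.52 with ATRA and 11.76 and 11.98 with EtOH. SLC7A8, another light chain that pairs with SLC3A2, had 9.55, 9.38 and 9.17 with ATRA and 10.29 and 10.44 with EtOH (it fell by 1.00 ± 0.15, adjusted p = 0.000524). The glutamate transporter SLC1A3 was not detected with ATRA and was at least 1.02-fold lower (adjusted p = 0.000966). The glutamine transporter SLC1A5 fell by 0.79 ± 0.17, a call lost without EtOH replicate 1 (adjusted p = 0.1).

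Of 4 tested genes of the metallothionein list, which bind or export metals, 3 were lower, where 8.78% of all genes were lower. The zinc exporter SLC30A1 had 6.17, 6.45 and 6.10 with ATRA and 7.45 and 7.03 with EtOH (it fell by 1.00 ± 0.17, adjusted p = 0.00174). MT1X fell by 0.88 ± 0.19 (adjusted p = 0.00764) and MT2A by 0.77 ± 0.24 (adjusted p = 0.043). Both metallothionein calls were lost without EtOH replicate 1, the higher control in each, with MT1X at -0.50 and MT2A at -0.22. MT1E did not pass (-0.35 ± 0.23, adjusted p = 0.335).

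Lysosome and autophagy genes were higher in 10 of 34 tested members, where 8.61% of all genes were higher, and lower in 0, with a median of 0.32. CTSA, a lysosomal protective protein, had 11.51, 11.27 and 11.10 with ATRA and 10.17 and 10.06 with EtOH (1.18 ± 0.20, adjusted p = 0.00167), and ULK1, the kinase that starts autophagy, rose by 0.80 ± 0.15 (adjusted p = 0.00373). Only 2 of 34 were higher without EtOH replicate 1, and 2 with equal array medians, with CTSA and ULK1 kept in both. CTSH, PSAP, CTSZ and MAP1LC3B, each higher by 0.53 to 0.71, were lost in both, with MAP1LC3B at 0.38 without that control. ABCA1, the cholesterol efflux pump, rose by 0.95 ± 0.17 (adjusted p = 0.00268), and PPARGC1A, a coactivator of mitochondrial genes, had 7.17, 7.25 and 7.63 with ATRA and 6.35 and 5.98 with EtOH (1.19 ± 0.21, adjusted p = 0.00214). Of 37 respiratory chain genes 1 was lower and 0 higher (2.70%, against 17.4% of all genes), or 3 lower with equal array medians. Of 35 genes of the NRF2 and glutathione list 3 were higher and 3 lower, 17.1% against 17.4% of all genes. With equal array medians 1 was higher and 6 lower, and 29 of the 35 differences were below 0. The heme oxygenase HMOX1 fell by 0.74 ± 0.13 (adjusted p = 0.00217) and the sulfiredoxin SRXN1 by 0.70 ± 0.14 (adjusted p = 0.00466).

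Pigment genes were higher in 10 of 25 tested members, where 8.61% of all genes were higher, and lower in 0, with a median of 0.39. Genes that move and dock melanosomes led, with SYTL2 at 9.38, 9.47 and 9.36 with ATRA and 7.69 and 7.72 with EtOH (1.69 ± 0.13, adjusted p = 2.28e-06) and RAB27A at 9.60, 9.49 and 9.53 with ATRA and 7.92 and 8.38 with EtOH (1.38 ± 0.16, adjusted p = 8.39e-05). Their other detected probes gave smaller differences, 0.46 for SYTL2 and 0.33 and 0.30 for RAB27A. TYR, the enzyme that starts melanin synthesis, had 13.09, 13.04 and 13.17 with ATRA and 12.01 and 12.47 with EtOH (0.86 ± 0.14, adjusted p = 0.00146). MITF, the melanocyte master factor, rose by 0.69 ± 0.15 (adjusted p = 0.00754), with 0.12 from its other detected probe. The MITF call was lost without EtOH replicate 1, with the mean of all probes and with equal array medians. PMEL gave 0.01 ± 0.13, TYRP1 0.14 ± 0.14 and MLANA 0.31 ± 0.15, and none passed (adjusted p of 0.174 to 0.961). Without EtOH replicate 1, 5 of 25 were higher and 0 lower, and the same counts held with equal array medians.

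Markers of other eye and nerve cells were partly higher. Of 8 markers of the retinal pigment epithelium, the pigmented layer that feeds photoreceptors, 7 were tested, while the defining RPE65 was not analysed here. Of the 7, KCNJ13, LRAT, MERTK and RLBP1 were higher, 4 in all, where 8.61% of all genes were higher. BEST1 gave -0.40, TTR -0.48 and RGR -0.28, and these 3 did not pass. The summed intensity of the 7 was 2461 to 2547 in ATRA samples and 818 to 1002 in EtOH samples. Of 10 tested glial and myelin genes 4 were higher and 1 lower, or 4 higher and 3 lower with equal array medians. PMP2, a myelin lipid carrier, was not detected with EtOH and was at least 1.73-fold higher (adjusted p = 4.17e-05), and MBP, myelin basic protein, rose by 1.00 ± 0.20 (adjusted p = 0.00442). SCRG1, a secreted glial and cartilage protein, had 4.86, 4.79 and 5.25 with ATRA and 7.46 and 6.51 with EtOH, at least 2.33-fold lower (adjusted p = 0.000272).

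Some neuronal genes were among the deepest falls. Of 19 tested members of their list 4 were lower and 2 higher, where 8.78% of all genes were lower and 8.61% higher. With equal array medians 4 were lower and 1 higher. This list, like the others, was chosen with earlier results of these data known. RALYL, an RNA-binding protein of brain, had 5.62, 5.24 and 5.01 with ATRA and 8.36 and 8.65 with EtOH, at least 6.42-fold lower (adjusted p = 2.54e-06). SYBU, a linker of presynaptic cargo, had 4.58, 4.66 and 4.62 with ATRA, not detected on any array, and 6.95 and 7.17 with EtOH, at least 2.46-fold lower (adjusted p = 1.75e-07). RIMS2, of the presynaptic active zone, fell by 1.75 ± 0.19 (adjusted p = 5.31e-05). Outside that list the small heat shock protein gene HSPB7 was not detected with ATRA and was at least 5.20-fold lower (adjusted p = 7.31e-08), and the lens crystallin CRYGC was not detected with EtOH and was at least 2.25-fold higher (adjusted p = 2.54e-06).

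Genes usually read in lymphoid cells were higher in 3 of 13 tested members and lower in 0 (23.1%), where 8.61% of all genes were higher. Called in either direction were 17.4% of all genes. RFTN1, a lipid raft protein of B cells, had 10.29, 10.56 and 10.42 with ATRA and 7.26 and 6.92 with EtOH (3.33 ± 0.15, adjusted p = 1.53e-08), and FCRLA, a B cell Fc receptor-like protein also found in melanoma, rose by 2.91 ± 0.17 (adjusted p = 2.02e-07). CD79A, of the B cell receptor, was detected on 1 of 3 EtOH arrays and was at least 1.95-fold higher (adjusted p = 0.00183). PTPRC and MS4A1, which mark leukocytes and B cells, were not analysed here. Among interferon-stimulated genes 4 of 22 were higher and 0 lower, 18.2% against 17.4% of all genes called in either direction, among them IRF9, a subunit of the interferon-activated factor (0.89 ± 0.14, adjusted p = 0.000947). None of 17 MHC class I genes passed, where 17.4% of all genes did, with a median of -0.08.

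**Figure D4:**
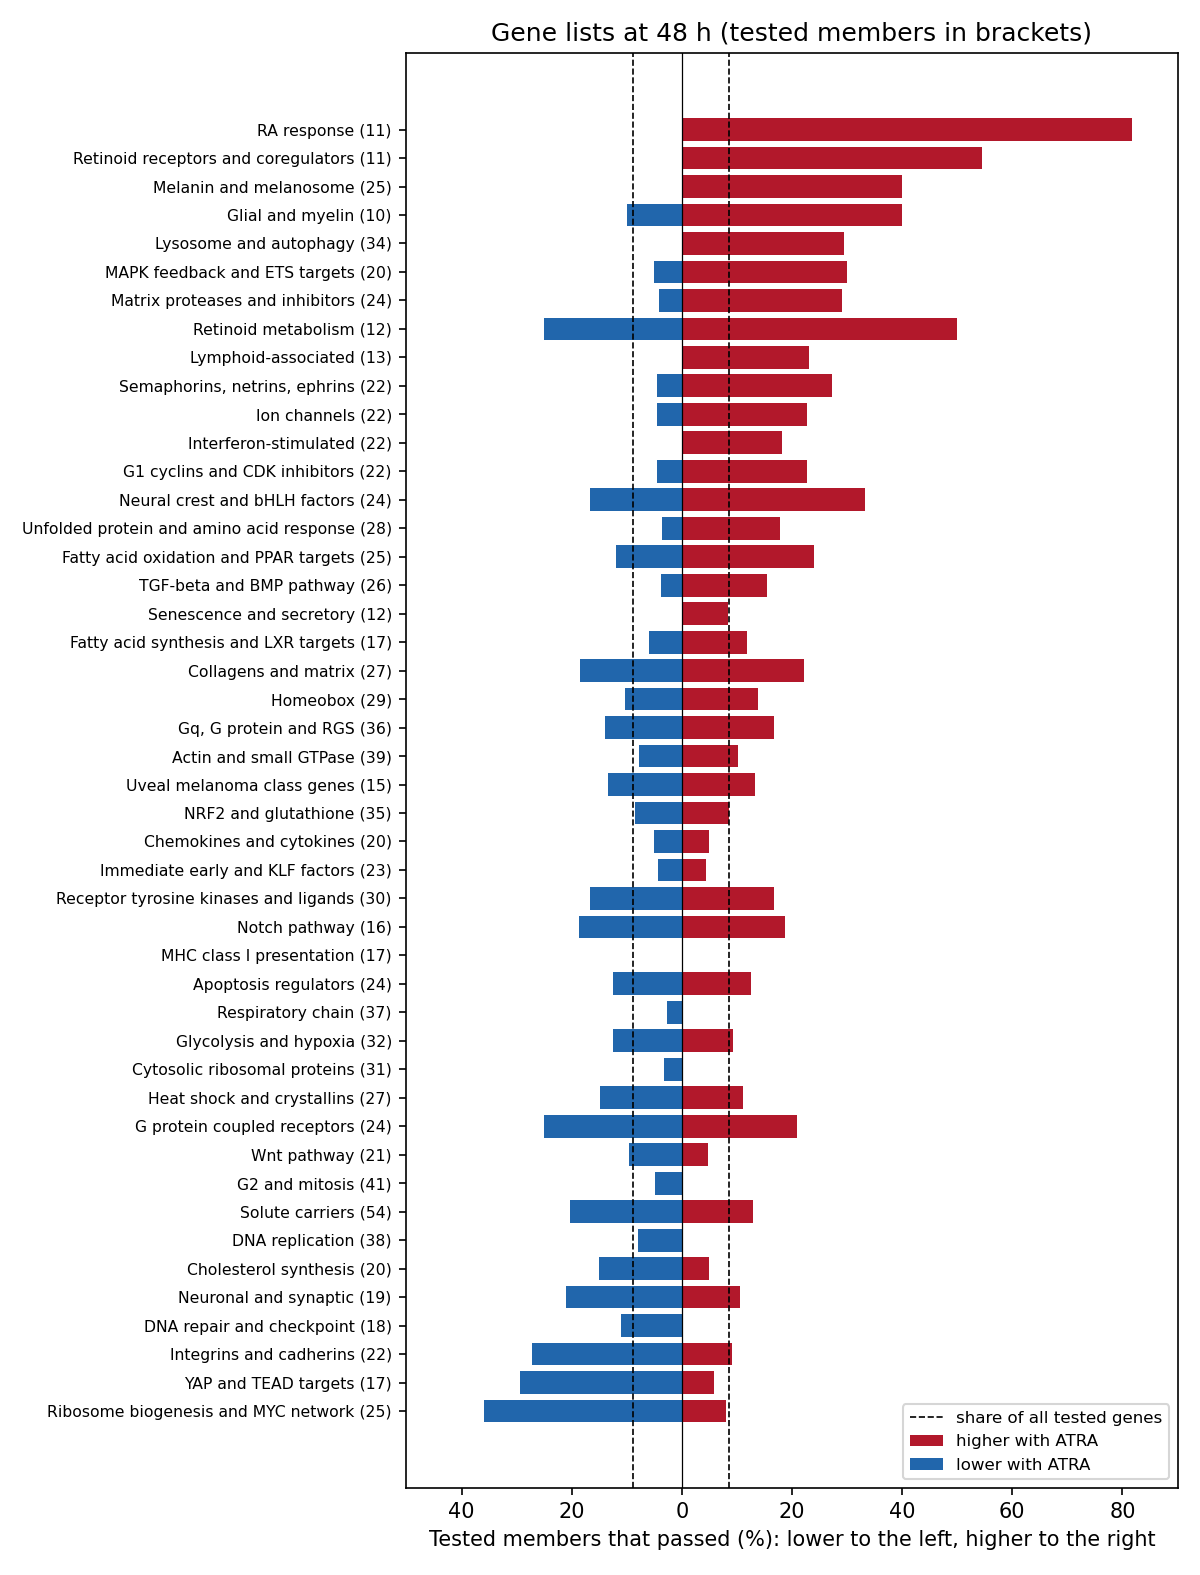
Share of the tested members of each gene list with at least 10 tested members (number in brackets) that were higher (red, to the right) or lower (blue, to the left) with ATRA at 48 h, in percent, with the shares of all tested genes as dashed lines. The small RNAs are not plotted. Retinoic acid response genes reach the highest share, with 9 of 11 higher, and of the lists plotted, genes of ribosome biogenesis and the MYC network have the highest share lower, with 9 of 25.

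The ATRA effect at 48 h was set against that at 24 h, each with its own controls. At 24 h 615 genes passed. Of the 919 genes higher at 48 h, 294 were also higher at 24 h, and of the 937 lower at 48 h, 220 were also lower at 24 h. A test of the change itself passed in 4 of 10673 genes (0.0375%), all with a larger difference at 48 h, and 499 genes had an unadjusted p under 0.05 there. Passing at 48 h and not at 24 h is therefore no sign of a difference between the times for the other genes.

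CYP26B1, the second hydroxylase, changed most. It had 8.74, 8.84 and 8.89 in ATRA samples at 48 h, against 5.84 and 5.88 in EtOH samples, a difference of 2.97 ± 0.14 (adjusted p = 2.22e-08). At 24 h it averaged 6.49 ± 0.16 with ATRA and 5.59 ± 0.21 with EtOH (SD, n = 3 and 2). The effect was larger at 48 h by 2.07 ± 0.20 (adjusted p = 0.00101), and passed in every alternative but that with the smaller array set alone. KCNJ13, a potassium channel of the retinal pigment epithelium, had 8.09, 8.07 and 8.16 with ATRA at 48 h and was not detected with EtOH (at least 5.33-fold higher), and its effect was larger by 1.36 ± 0.19 than at 24 h (adjusted p = 0.029). MXD4 averaged 9.32 ± 0.10 with ATRA and 9.29 ± 0.05 with EtOH at 24 h (SD, n = 3 and 2), and its effect was larger at 48 h by 1.24 ± 0.18 (adjusted p = 0.029). For DCN the change was 1.72 ± 0.26 (adjusted p = 0.0411), and it was not detected with ATRA at 24 h. KCNJ13, MXD4 and DCN did not pass without EtOH replicate 1, without any 1 of the ATRA samples at 48 h or with equal array medians (adjusted p of 0.0533 to 0.155).

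SHC4, an adaptor of receptor kinases, was the 1 gene that passed in opposite directions, -0.56 ± 0.13 at 24 h (adjusted p = 0.0258) and 0.53 ± 0.13 at 48 h (adjusted p = 0.0163). The test of the change did not pass (1.09 ± 0.19, adjusted p = 0.0718), and the 48 h call was lost without EtOH replicate 1 and with equal array medians.

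**Figure D5:**
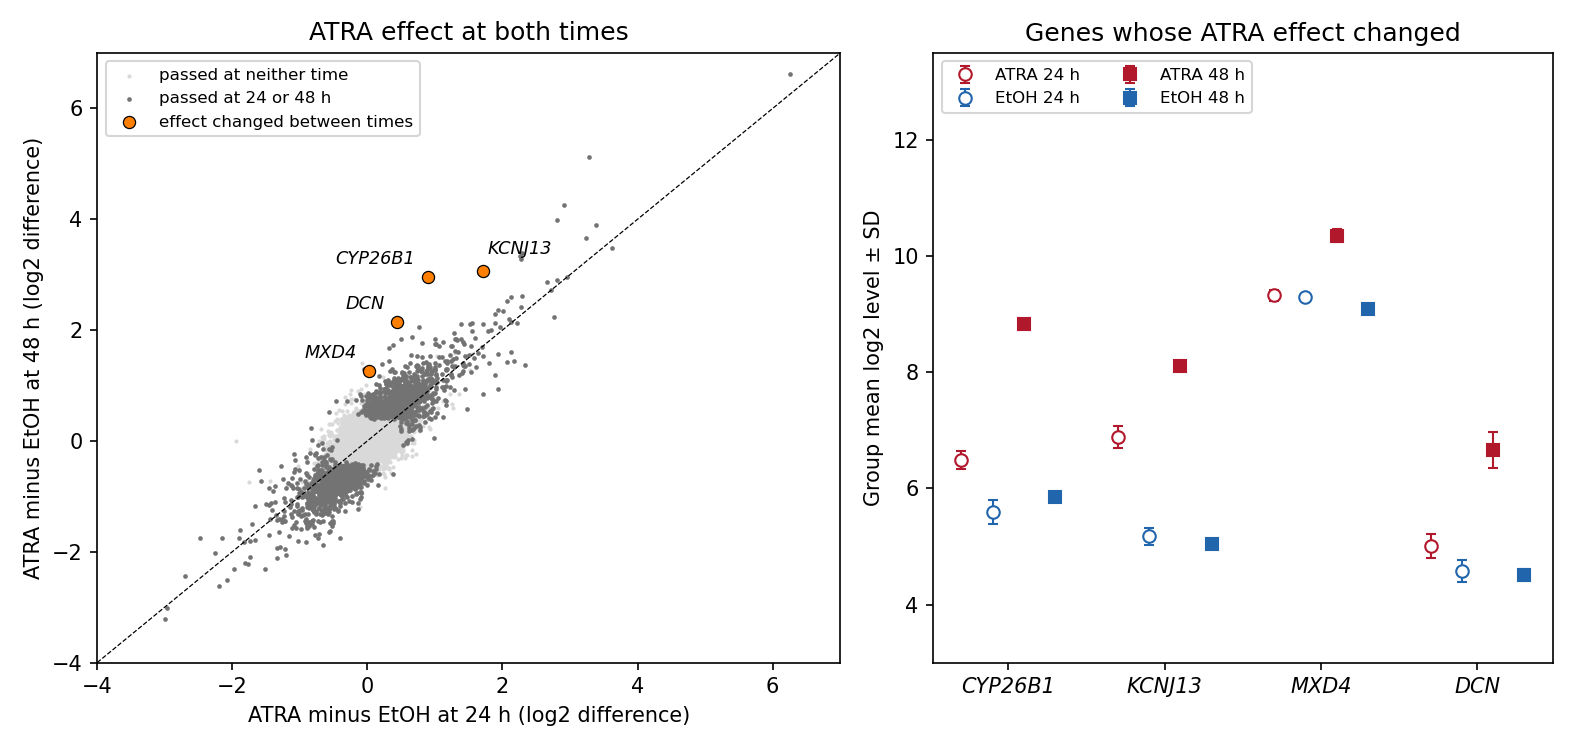
Left, ATRA minus EtOH differences (log2) of 10673 genes at 24 h (x axis) and at 48 h (y axis), with equal differences as a dashed line and the 4 genes whose effect changed in orange; right, group means ± SD (log2 level) of these 4 genes, 3 ATRA and 2 EtOH samples at each time. All 4 lie above the line, and CYP26B1 lies at 0.90 and 2.97.

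ATRA was compared with 9-cis RA, an isomer with another configuration at a single side-chain double bond, at the same dose of 100 nM and time of 48 h, as 1 pair of compounds. Of 10673 genes 4 passed (0.0375%), 1 higher (0.00937%) and 3 lower (0.0281%) with ATRA, and 568 had an unadjusted p under 0.05. CYP26B1 was higher with ATRA, with a mean of 8.83 ± 0.08 in ATRA samples and 6.51 ± 0.07 in 9-cis RA samples (SD, n = 3 and 2), a difference of 2.32 ± 0.14 (adjusted p = 3.66e-06). ECM1, a matrix protein listed among the genes of uveal melanoma risk classes, averaged 8.01 ± 0.01 with ATRA and 9.29 ± 0.01 with 9-cis RA (-1.29 ± 0.12, adjusted p = 0.000243). ECM1 did not pass between ATRA and EtOH (0.23 ± 0.12, adjusted p = 0.18). SERPINA3, an acute phase protease inhibitor, was detected on 1 of 4 ATRA arrays and was at least 2.73-fold lower with ATRA (adjusted p = 0.000304). IL1RAPL1, a synaptic receptor of the interleukin 1 receptor family, differed by -0.94 ± 0.14 (adjusted p = 0.0473), a call lost when any of the ATRA or EtOH samples at 48 h was left out, when the fit held a set term and with equal array medians. Within the larger array set alone neither ECM1 (adjusted p = 0.0639) nor SERPINA3 (adjusted p = 0.0561) passed. CYP26A1 gave -0.48 ± 0.13 (adjusted p = 0.731), with a 95% interval of -0.75 to -0.21. LRAT gave 0.36 ± 0.24 (adjusted p = 0.875), with a 95% interval of -0.16 to 0.89. RARB gave 0.41 ± 0.15 (adjusted p = 0.875), with a 95% interval of 0.09 to 0.74. None of these 3 passed, which does not show that the isomers act alike.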

How the data were processed

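RNA of Mel202 cells was measured on 20 Illumina BeadChip arrays. The authors deposited a non-normalized intensity and a detection p-value for each of 47323 probes on each array, and a series matrix of log2 values of 22579 probes that was made with lumi, per the submitters' processing notes, with settings not given in the sources used here. Background was corrected with limma's normal-exponential model on detection p-values (offset 16), followed by quantile normalization and log2 (limma 3.58.1, R 4.3.3). Averaging arrays with the same title number gave 14 samples. The filter kept 18269 probes with a detection p below 0.01 on 3 or more arrays, and each of 10673 genes was represented by its probe with the highest mean. Gene names came from the platform annotation for probes with 1 gene, and 4075 detected probes without one were tested apart. All 6 groups were fitted together with limma's moderated test and p-values were adjusted by Benjamini and Hochberg, with 8 residual and 5.09 prior degrees of freedom. Data were simulated for ATRA against EtOH at 48 h over 10673 genes, 200 of them changed. The test found 22.4% of 1.5-fold, 71.6% of 2-fold and 100% of 4-fold changes, and 5.84% of its calls were false. The simulated noise was independent between genes and samples. It held no shift shared across a library or array set, so the false share in the real data is not known from it. The genes named are the 40 highest and 40 lowest that passed without overlap, up to 6 passing and 3 not passing members of each list, the genes of the other 2 comparisons and a set of retinoid, cell cycle and marker genes, of which the text gives a part. The comparison and the gene lists were chosen with earlier results of these data known. Alternatives were tried for background, normalization, filter, probe choice, array set and left-out samples. Promoter sequences are those of RefSeq, and figures were drawn with matplotlib 3.10.9.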

Additional observations from a re-analysis of the deposited data

Results flagged for a closer look

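The ATRA effect differed between the times in 4 genes by the interaction term. The difference between ATRA and EtOH was larger at 48 h than at 24 h by 2.07 for CYP26B1, 1.36 for KCNJ13, 1.24 for MXD4 and 1.72 for DCN, all in log2. The calls of KCNJ13, MXD4 and DCN were lost under several alternatives, and that of CYP26B1 within the smaller array set alone.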

How the results depend on the processing

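No paired analysis was possible because no label ties a treated sample to a particular control. For ATRA against EtOH at 48 h, 1856 genes passed in the fit reported, 583 when only the 5 samples of that comparison were fitted and 103 within the smaller array set alone, where fewer arrays were used. Leaving out 1 sample gave 816 genes at the least (without EtOH replicate 1) and 3274 at the most (without EtOH replicate 2-3). The change of the effect between 24 and 48 h passed in 4 genes as reported, 1 with equal array medians, 23 with the 20 arrays taken as independent, 11 with a set term and 0 within the smaller set alone, and leaving out 1 sample gave 1 to 75 genes. ATRA against 9-cis RA passed in 4 genes as reported, 7 with the authors' series matrix values, 7 with uncorrected background, 15 with the 20 arrays taken as independent, 1 within the larger set alone and 0 within the smaller set alone. Within the smaller set limma gave 439 genes at an unadjusted p under 0.05 for the change between times and 295 for ATRA against 9-cis RA. MYC reversed when controls were left out, with -0.65 without EtOH replicate 1 and 0.70 without EtOH replicate 2-3, and the cause was not tested.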
